A study of Mus musculus with 12 samples.

Results

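Gas6 and its family of ligands and receptors, the TAM system, were followed in RNA-seq of embryonic mouse hearts. The family comprised 5 of the 19424 genes with recoverable counts: the ligands Gas6 and Pros1 and the receptors Axl, Mertk and Tyro3. They were taken by symbol, and all 5 passed the filter on low values in every comparison. Gas6 was selected on these same libraries, because it was called upregulated in mutants at both stages, and the other 4 genes were taken as its relatives. The differences of Gas6 between groups are therefore given as a description, without a test.

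Hearts of CD1 embryos were collected at embryonic day 11.5 (E11.5) and E12.5. Controls were Mesp1Cre;Hira+/fl and mutants were Mesp1Cre;Hira-/fl, with 3 libraries in each of the 4 groups, so that Cre and a floxed Hira allele were present in every heart. Mesp1Cre recombines in the early cardiogenic mesoderm, and cells of the heart from other lineages keep the floxed allele intact. HIRA is a chaperone that deposits the histone variant H3.3. The labels do not say whether replicates were separate embryos, so p-values measure only the spread between these libraries. Totals ran from 11994148 to 17483982 counts per library, and the lowest was that of E11.5 mutant replicate 3. By Y-linked genes, the 3 E11.5 controls were all male, whereas the E11.5 mutants held 1 male, and each group at E12.5 held 1 male. Hira counts do not separate the recombined exon: mean Hira was 77.63 ± 8.64 CPM (counts per 1000000 reads, SD, n = 3) in controls and 64.82 ± 8.98 in mutants at E11.5, and 74.77 ± 12.7 and 74.24 ± 5.28 at E12.5, and it did not pass edgeR's test at either stage (adjusted p = 0.607 and 0.962). The 7 cardiomyocyte markers summed to between 15800 and 23200 CPM in all 12 libraries.

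TYRO3, AXL and MERTK are receptor tyrosine kinases whose ligands, GAS6 and protein S (the product of Pros1), bridge them to phosphatidylserine on the surface of dying cells and platelets. The ligands carry a Gla domain, which binds phosphatidylserine only after vitamin K-dependent carboxylation. GAS6 binds all the receptors of the family, whereas protein S acts through TYRO3 and MERTK and not through AXL. The system is known for the clearance of apoptotic cells by macrophages, mainly through MERTK, and for damping inflammation.

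The stretches before the transcription starts of Gas6, Axl and Mertk are shown, because their libraries did not overlap between genotypes at E12.5. Each is the 250 bases before the RefSeq start, on GRCm38.p6, written 5′ to 3′ on the strand of the gene. Capitals mark the GC box GGGCGG in either orientation. Gas6 lies at chr8:13494536-13494785 on the minus strand, Axl at chr7:25788734-25788983 on the minus strand and Mertk at chr2:128698665-128698914 on the plus strand.
Gas6: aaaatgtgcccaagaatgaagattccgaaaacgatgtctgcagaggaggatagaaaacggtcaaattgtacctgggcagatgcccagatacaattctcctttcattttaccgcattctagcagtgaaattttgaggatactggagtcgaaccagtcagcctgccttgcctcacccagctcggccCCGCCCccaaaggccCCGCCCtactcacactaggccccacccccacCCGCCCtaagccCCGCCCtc
Axl: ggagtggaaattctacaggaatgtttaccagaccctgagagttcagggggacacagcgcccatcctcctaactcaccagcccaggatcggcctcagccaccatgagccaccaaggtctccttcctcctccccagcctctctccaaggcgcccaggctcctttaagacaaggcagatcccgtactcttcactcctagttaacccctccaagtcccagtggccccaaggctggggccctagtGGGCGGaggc
Mertk: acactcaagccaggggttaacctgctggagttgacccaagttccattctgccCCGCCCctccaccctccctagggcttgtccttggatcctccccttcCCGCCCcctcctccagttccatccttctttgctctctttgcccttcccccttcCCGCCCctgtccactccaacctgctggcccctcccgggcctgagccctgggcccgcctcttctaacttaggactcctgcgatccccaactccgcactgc
The Gas6 stretch held 4 GC boxes, beginning 66, 51, 20 and 8 bases before the start, all read on the opposite strand. Axl held 1, on the printed strand 10 bases before the start, and Mertk held 3, on the opposite strand at 198, 152 and 99 bases. All 5 genes matched 1 RefSeq promoter each, and each held at least 1 GC box, as did 32.7% of all 32851 promoters over the same 250 bases. GC content was 54.8% for Gas6, 60.0% for Axl, 63.6% for Mertk, 64.4% for Pros1 and 73.2% for Tyro3, against a median of 52.4% over all promoters. A GA repeat (GAGAGAGA, in 3.26% of all promoters), a TATA box (TATAAA, 12.4%) and the core recognised by NKX2-5 (AAGTG, 40.7%) were also searched on both strands. These letters were found in none of the 5 windows. The Tyro3 window, at chr2:119799264-119799513 on the plus strand, lies inside the gene as annotated, which starts at 119797733.

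Gas6, the member selected for its difference between genotypes, is described first. It lies on chromosome 8 from 13465374 to 13494535 on the minus strand in the files (mm10, that is GRCm38), and its principal transcript in the GENCODE annotation has 15 exons. In E11.5 controls Gas6 measured 56.8, 50 and 52.4 CPM. The E11.5 mutants measured 126, 113 and 149 CPM. All 3 mutants lay above all 3 controls, and the 2 means were 53.07 ± 3.48 and 129 ± 18.4 CPM (SD, n = 3). The E12.5 controls measured 119, 140 and 99.2 CPM and the mutants of that stage 228, 200 and 217 CPM. Again the genotypes did not overlap, with means of 119.6 ± 20.4 and 214.9 ± 14.2 CPM. The fitted log2 fold change of mutants over controls was 1.28 (SE 0.14, 2.43-fold) at E11.5 and 0.84 (SE 0.11, 1.79-fold) at E12.5. In the fit of both stages, with stage as a term, it was 1.06 (SE 0.11, 2.08-fold). The later difference less the earlier one was -0.44 (SE 0.19) on the log2 scale. In this bulk tissue more Gas6 RNA per cell and more cells that make it cannot be told apart.

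**Figure D1:**
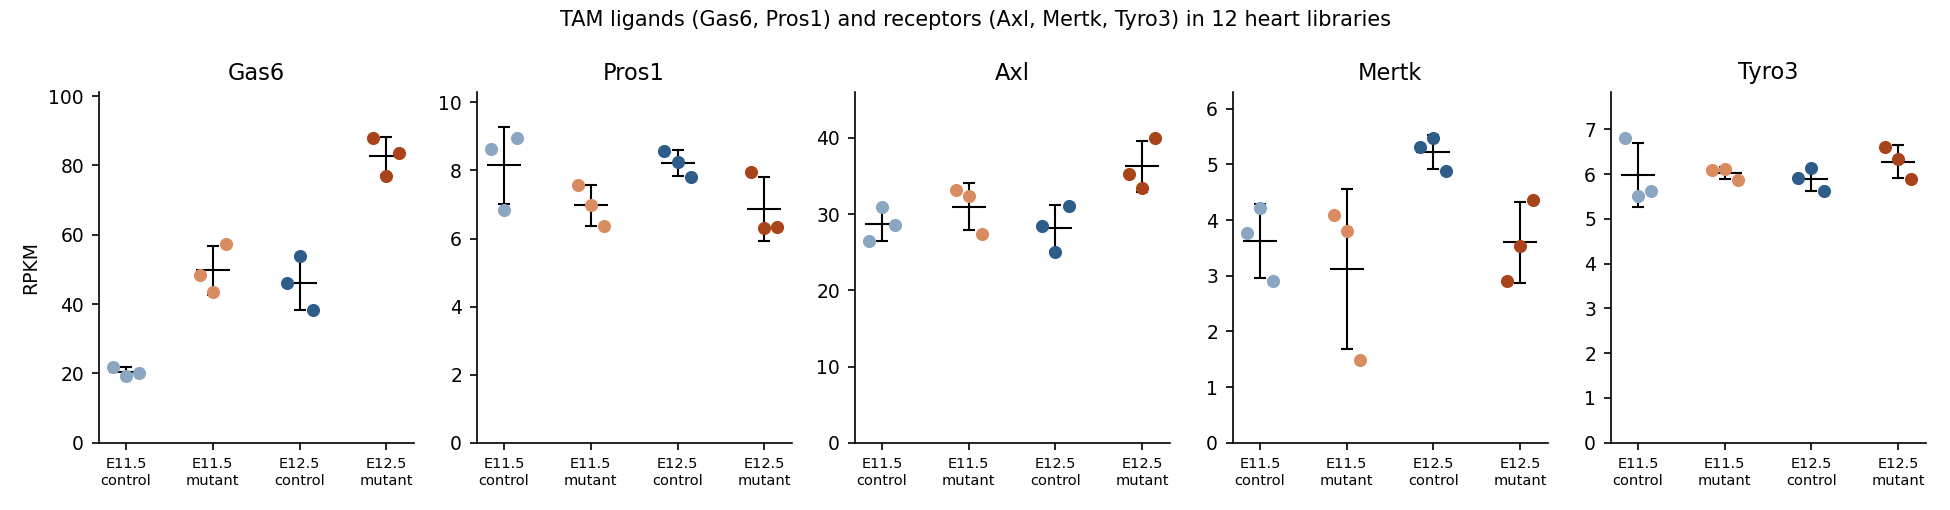
Level of each of the 5 genes in RPKM (reads per kilobase of transcript, scaled to library size, linear axes from 0 that differ between panels) in the 4 groups. Points are libraries in the order of their replicate numbers, and black bars are the mean and SD (n = 3). Mean Gas6 was 20.47 RPKM in controls and 49.77 in mutants for E11.5, and 46.11 and 82.89 RPKM for E12.5, whereas Tyro3 stayed between group means of 5.886 and 6.274 RPKM.

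The values of Gas6 were set beside those of all genes. A gene was called changed when its adjusted p was at most 0.05 by edgeR's quasi-likelihood test, over all genes tested, and its fold change at least 1.5. At E11.5, 0.115% of 12197 genes were called, and 1 of the 5 members, Gas6, was among them through its selection. It ranked 5 by fold change among the 6 called upregulated. At E12.5, 2.95% of 12257 genes were called, again with Gas6 as the 1 member, ranking 119 among 195 upregulated genes. In the fit of both stages 3.22% of 12270 genes were called, and 1 of the 5 members. Complete separation of the libraries was more common: 16.3% of genes did not overlap between genotypes at E11.5 and 26.3% at E12.5, against 1 and 3 of the 5 members. Leaving out E11.5 control replicate 1 or 3, or E11.5 mutant replicate 1 or 2, left 0 genes called at E11.5. The numbers called depended on the fit: at E11.5 DESeq2 called 248 genes, and a fit of all 12 libraries called 221 at E11.5 and 132 at E12.5.

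Gas6 also differed between stages. In controls the log2 change from E11.5 to E12.5 was 1.17 (SE 0.13, 2.25-fold), with all 3 E12.5 libraries above all 3 E11.5 libraries. With embryo sex as a term it was 0.90, a value that rests on the 1 male E12.5 control. In mutants, without that term, the log2 change was 0.73 (SE 0.13, 1.65-fold), again without overlap. Because Gas6 had been selected on the same libraries, these values are likewise a description without a test. Of the other 4 members 0 were called between stages in controls, against 5.28% of 12252 genes, and 0 in mutants, against 0.556% of 12238 genes. Mertk did not overlap between stages in controls and Axl did not in mutants, which together with Gas6 made 2 of the 5 members in each, against 37.4% and 17.4% of genes.

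The order of the Gas6 levels ran from E11.5 controls through E12.5 controls and E11.5 mutants to E12.5 mutants. The neighbours in the middle were within their spread: E11.5 mutants covered 113 to 149 CPM and E12.5 controls 99.2 to 140 CPM. By sex, the 3 male E11.5 controls lay at 50 to 56.8 CPM and the 1 male E11.5 mutant at 149 CPM. At E12.5 the female controls had 119 and 140 CPM and the female mutants 200 and 217 CPM, and the males 99.2 and 228 CPM. Since the genotypes did not overlap, the order within each sex follows from that.

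Markers of other heart cells were read beside Gas6. The 5 smooth muscle markers, of which 4 were tested, summed to 2380 to 2910 CPM in E11.5 controls and 2850 to 3420 in E11.5 mutants, and to 1570 to 2080 and 2190 to 2570 CPM at E12.5. By edgeR 0 of the 4 were called between genotypes, although 3 fell under an unadjusted p of 0.05 at the later stage and 0 at the earlier. Over all genes tested, 10.18% fell under it at E11.5 and 21.38% at E12.5, and 0.115% and 2.95% were called. Of the 3 smooth muscle markers at E12.5, Acta2 and Cnn1 were higher in mutants (log2 fold change 0.41 each) and Myocd was lower (-0.27). Myh11, at a mean of 0.288 RPKM, was the marker not tested. The 7 endothelial and endocardial markers had a median log2 fold change of 0.44 at the earlier and 0.095 at the later stage, with 0 called at either and 3 under an unadjusted p of 0.05 at each. Of 8 epicardial and mesothelial markers, Msln and Krt19 were called upregulated at E12.5. They were the only 2 under an unadjusted p of 0.05 there, and the list median was 0.15. At E11.5 the median was -0.64 with 0 called and 6 under an unadjusted p of 0.05. Krt19 was among those 6 and was the 1 marker of the list that was higher in mutants (log2 fold change 0.66). Of 6 cushion mesenchyme markers, 1 was called downregulated at E12.5, Postn, an extracellular matrix protein (log2 fold change -0.61, SE 0.13, edgeR adjusted p = 0.0241). Of 6 erythroid markers, 4 were called downregulated at E12.5 (Hbb-y, Hbb-bh1, Hba-x and Slc4a1). Their list summed to 3510 to 5820 CPM in controls and 1910 to 2400 CPM in mutants, with 0 called at E11.5. None of these markers was without counts in any group. The 5 liver markers summed to 0.896 to 24.5 CPM in E11.5 controls and 0.664 to 55.6 CPM in E11.5 mutants. At E12.5 they summed to 3.61 to 5.37 CPM in controls and 2.76 to 49.8 CPM in mutants. With stage as a term edgeR called 1 of the 4 tested, Alb (log2 fold change 3.99, SE 1.11, adjusted p = 0.045), against 3.22% of all genes. Alb had no counts in E11.5 controls and averaged 6.59 CPM in E12.5 mutants, with an SD of 10.5 that exceeded the mean. Replicate 1 held the highest list sum in E12.5 mutants (49.8 CPM), and also in E11.5 controls (24.5) and E11.5 mutants (55.6). What any of these markers contributed to the Gas6 values was not tested.

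The genes whose pattern lay closest to that of Gas6 were then ranked. Over the 12 libraries and 8751 genes of at least 5 mean RPKM, log2 CPM correlated most closely with Gas6 for Krt80 (Pearson r = 0.976), a type II keratin, followed by Baiap2 (0.939), the joint entry Jak3+Insl3 (0.933), Myzap (0.928) and Pkn3 (0.913). These correlations describe libraries that share the genotype and stage differences, on which Gas6 had been selected. Mean Krt80 was 2.39 RPKM in controls and 6.73 in mutants for E11.5, and 7.11 and 13.7 RPKM for E12.5, and it was called upregulated in mutants at both stages. Myzap, which encodes an intercalated disc protein, was called at E12.5 (log2 fold change 0.70) but not at E11.5 (0.71). Once the mean of each group was subtracted, the closest genes were Itgb5 (r = 0.96), Rab11fip5 (0.935), Crlf2 (0.925), Ddx55 (0.918) and Becn1 (0.914). None of the 5 was called between genotypes at either stage. They are the highest of 8751 correlations over only 12 libraries, and whether they exceed chance was not tested.

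Pros1, the other ligand, did not pass the test in any comparison. It lies on chromosome 16 from 62854307 to 62929346, on the plus strand and 43977270 bases from the start of Hira. Pros1 measured 28.3, 22.4 and 29.3 CPM in E11.5 controls and 24.8, 22.8 and 20.8 CPM in E11.5 mutants. At E12.5 the controls measured 28, 27 and 25.6 CPM and the mutants 26, 20.6 and 20.7 CPM. The groups overlapped at both stages, and the direction was opposite to that of Gas6. The log2 fold change was -0.23 (SE 0.15, edgeR adjusted p = 0.715) at E11.5 and -0.26 (SE 0.11, adjusted p = 0.21) at E12.5. Over both stages it was -0.24 (SE 0.09, adjusted p = 0.143), with a 95% interval from -0.44 to -0.05 before adjustment over genes. Between stages it changed by 0.01 in controls and -0.03 in mutants, with adjusted p of 0.965 and 0.946.

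Between the ligands the balance of RNA thus differed widely across groups. Per length, Gas6 exceeded Pros1 in all 12 libraries. For E11.5 the ratio of their RPKM was 2.25 to 2.81 in controls and 6.22 to 9.02 in mutants, and for E12.5 it was 4.9 to 6.55 and 11.1 to 13.2. Because Gas6 enters this ratio, it is a description and was not tested. The order Axl, Gas6, Pros1, Tyro3, Mertk held in 3 libraries, the E11.5 controls, and Gas6 came before Axl in the other 9. In 8 of these the order below was unchanged, and in 1, E12.5 mutant replicate 2, Tyro3 came just above Pros1, the only neighbours whose values overlapped within a group. Gas6 to Axl was 0.625 to 0.828 in E11.5 controls and 2.09 to 2.5 in E12.5 mutants.

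Axl was the most abundant receptor in every library. It lies on chromosome 7 from 25757273 to 25788705 on the minus strand, with 20 exons. It measured 135, 157 and 145 CPM in E11.5 controls and 169, 164 and 139 CPM in E11.5 mutants, and these groups overlapped. At E12.5 it measured 144, 127 and 158 CPM in controls and 179, 170 and 204 CPM in mutants, without overlap. The log2 fold change was 0.11 (SE 0.13, edgeR adjusted p = 0.874) at E11.5. At E12.5 it was 0.36 (SE 0.10, 1.29-fold, 95% interval 1.11 to 1.49), with an edgeR p of 0.00322 and an adjusted p of 0.058, and it did not pass. Over the alternatives the adjusted p ran from 0.01 to 0.188, and the fold change stayed below the threshold of 1.5. Among females at E12.5, controls had 144 and 127 CPM and mutants 170 and 204 CPM. Over both stages the difference was 0.24 (SE 0.08, adjusted p = 0.112), and the effects at the 2 stages differed by 0.25 (SE 0.16, adjusted p = 0.956). From E11.5 to E12.5, Axl changed by -0.02 in controls (adjusted p = 0.905) and by 0.22 in mutants (adjusted p = 0.64), where the stages did not overlap.

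Mertk, the receptor best known from macrophages, was the least abundant receptor per length. It lies on chromosome 2 from 128698956 to 128802894 on the plus strand, with 19 exons, and had 61 to 348 counts per library. At E11.5 it measured 13.3, 15 and 10.3 CPM in controls and 14.6, 13.5 and 5.27 CPM in mutants. The groups overlapped, and the lowest value belonged to the shallowest library, E11.5 mutant replicate 3. At E12.5 it measured 18.9, 19.5 and 17.4 CPM in controls and 10.3, 12.6 and 15.5 CPM in mutants, without overlap. The log2 fold change at E11.5 was -0.21 (SE 0.34, edgeR adjusted p = 0.92) and turned to 0.11 without that replicate. With embryo sex as a term it was -1.28 (SE 0.30, edgeR adjusted p = 0.0991), and the adjusted p ran from 0.0991 to 1 over the alternatives. The 1 male mutant, the same replicate 3 at 5.27 CPM, lay below the 3 male controls. Every E11.5 control was male, so the value of -1.28 rests on that 1 library. At E12.5 the log2 fold change was -0.54 (SE 0.15, 0.688-fold, 95% interval 0.551 to 0.859). It did not pass, with an edgeR p of 0.0035 and an adjusted p of 0.0597. Without E12.5 mutant replicate 3 it was -0.70 with an edgeR adjusted p of 0.0237 and was called, and the adjusted p ran from 0.0237 to 0.501 over the alternatives. It was also under 0.05 with DESeq2 (0.0259), with no filter (0.035) and with sex as a term (0.0394), where the fold change was short of 1.5.

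In controls Mertk was higher at E12.5 in every library, by 0.53 on the log2 scale (SE 0.15, 1.44-fold, edgeR adjusted p = 0.0518), which did not pass. It was called without E11.5 control replicate 2 (adjusted p = 0.0146, and from 0.0146 to 0.557 over the alternatives). The adjusted p was also under 0.05 with DESeq2 (0.0284), with no filter (0.0416) and with the replicate block (0.0326), where the fold change was short of 1.5. In mutants the change was 0.18 (SE 0.34, edgeR adjusted p = 0.877). Over both stages the genotype difference was -0.37 (SE 0.20, edgeR adjusted p = 0.333). It passed with sex as a further term, at -0.61 with an adjusted p of 0.0478 (0.0478 to 0.55 over the alternatives). In that fit the only male E11.5 mutant was the shallow replicate 3, with 61 Mertk counts.

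Macrophage markers were lower in mutants at both stages. The 8 marker genes (Csf1r, Cx3cr1, C1qa, C1qb, C1qc, Fcgr1, Mrc1 and Cd68) summed to 36.6 to 93.8 CPM in E11.5 controls and 15.8 to 18.5 CPM in E11.5 mutants. At E12.5 they summed to 90.3 to 118 CPM in controls and 50.3 to 69.7 CPM in mutants. The genotypes did not overlap at either stage, and all 8 genes had counts in every group. By edgeR, 1 of the 7 tested was called downregulated at E11.5, C1qb, a complement subunit made by macrophages (log2 fold change -2.66, SE 0.36, adjusted p = 0.0444), and all 7 fell under an unadjusted p of 0.05, against 10.18% of all genes. Later, 3 of 7 were called downregulated: Csf1r, the macrophage growth factor receptor (-0.73, SE 0.16, adjusted p = 0.0267), Cx3cr1, a chemokine receptor (-0.84, SE 0.19, adjusted p = 0.031), and Mrc1, the mannose receptor (-1.31, SE 0.17, adjusted p = 0.00302). The median over the list was -1.94 at E11.5, where Mertk overlapped between genotypes, and -0.57 at E12.5, where it did not. In mutants 5 of the 7 were called upregulated from E11.5 to E12.5, against 0.556% of all genes, while Mertk did not pass. Calls between genotypes covered 0.115% of all genes at E11.5 and 2.95% at E12.5. What macrophages contributed to the Mertk values was not tested.

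**Figure D2:**
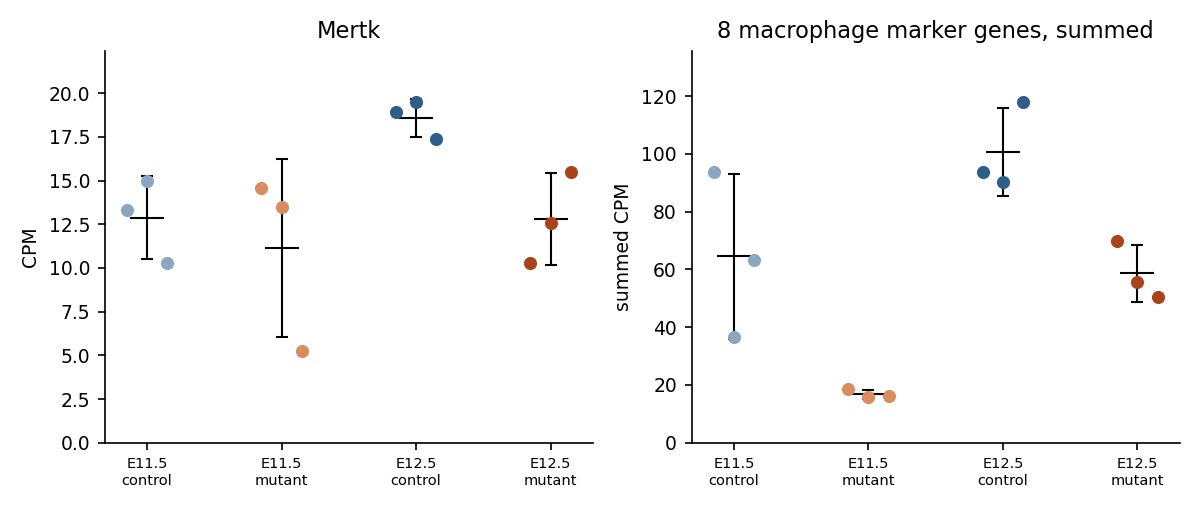
Mertk (left, CPM) and the summed CPM of 8 macrophage marker genes (right) in the 4 groups, on linear axes from 0. Points are libraries in the order of their replicate numbers, with the mean and SD in black (n = 3). The marker sum was 15.8 to 18.5 in E11.5 mutants against 36.6 to 93.8 in controls, whereas Mertk overlapped between those groups and separated at E12.5.

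Tyro3 differed least between group means, which ran from 23.48 to 25.03 CPM. It lies on chromosome 2 from 119797733 to 119818104 on the plus strand, with 19 exons. It measured 27.2, 22 and 22.4 CPM in E11.5 controls and 24.3, 24.4 and 23.4 CPM in E11.5 mutants. At E12.5 it measured 23.6, 24.5 and 22.4 CPM in controls and 26.3, 25.3 and 23.5 CPM in mutants. The groups overlapped throughout. The log2 fold change was 0.01 (SE 0.14, edgeR adjusted p = 0.993) at E11.5 and 0.09 (SE 0.09, adjusted p = 0.622) at E12.5. In the fit of both stages the 95% interval ran from -0.11 to 0.21, that is 0.929-fold to 1.16-fold.

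**Figure D3:**
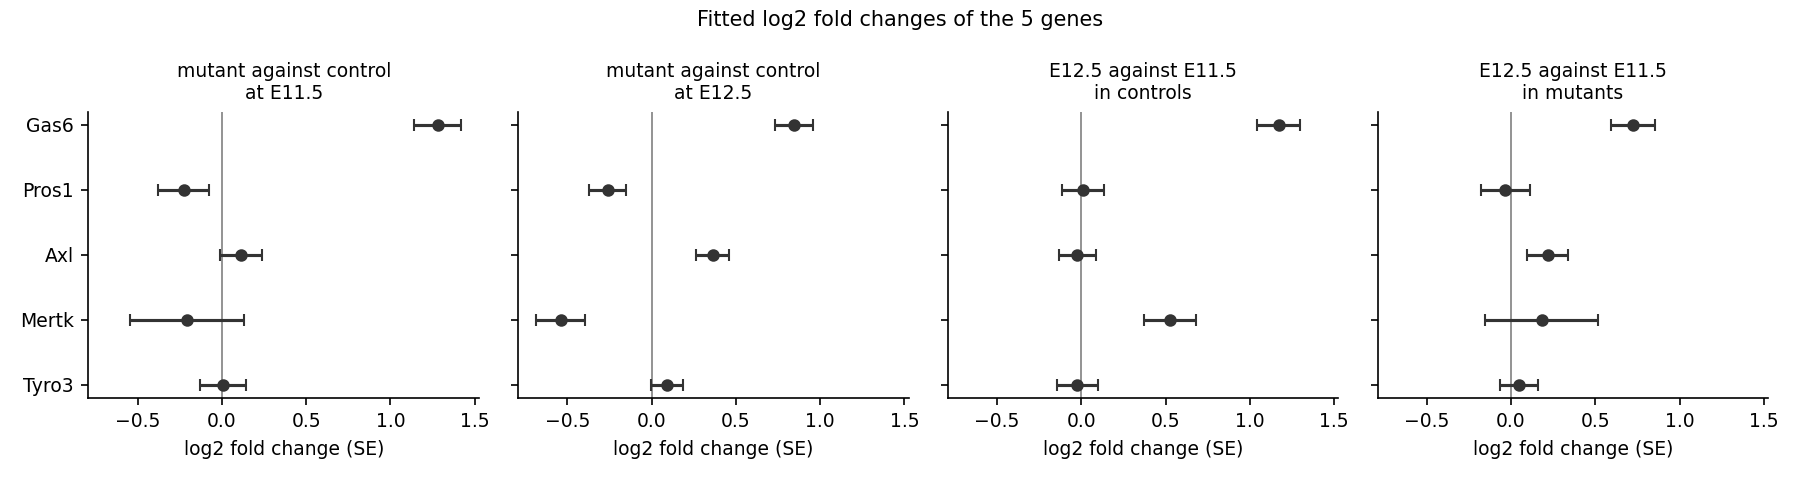
Fitted log2 fold changes (horizontal axis) of the 5 genes (rows) in 4 comparisons (panels), with bars for the SE. Gas6 lay above 0 in each panel, at 1.28, 0.84, 1.17 and 0.73. At E12.5 Axl lay at 0.36 and Mertk at -0.54, on opposite sides of 0, and Tyro3 lay within 0.09 of 0 throughout.

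The share of each receptor in the summed receptor RPKM was compared between genotypes within stages by an exact permutation test over libraries, with 400 regroupings and a smallest possible p of 0.005. Axl held 71.47% to 76.92% of the sum in E11.5 controls and 76.47% to 78.87% in E11.5 mutants. At E12.5 it held 68.28% to 74.76% in controls and 77.19% to 79.63% in mutants. Averaged over stages its share was 4.73 percentage points higher in mutants (exact permutation test, two-sided, p = 0.015, adjusted over 6 tests p = 0.075). Mertk held 7.871% to 10.39% and 4.261% to 9.452% at E11.5, and 11.74% to 14.97% and 6.485% to 8.669% at E12.5, in controls and mutants. Its share was 3.75 points lower in mutants (exact permutation p = 0.025, adjusted p = 0.075). The share of Tyro3 differed by -0.97 points (exact permutation, adjusted p = 0.456). None of these passed after adjustment, and neither did the differences between stages, which were -1.003 points for Axl, 2.06 for Mertk and -1.05 for Tyro3 (exact permutation, adjusted p = 0.54, 0.24 and 0.456). Without E11.5 control replicate 3 the difference between genotypes was 5.25 points for Axl and -4.15 points for Mertk, with adjusted exact p of 0.03 and 0.045.

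**Figure D4:**
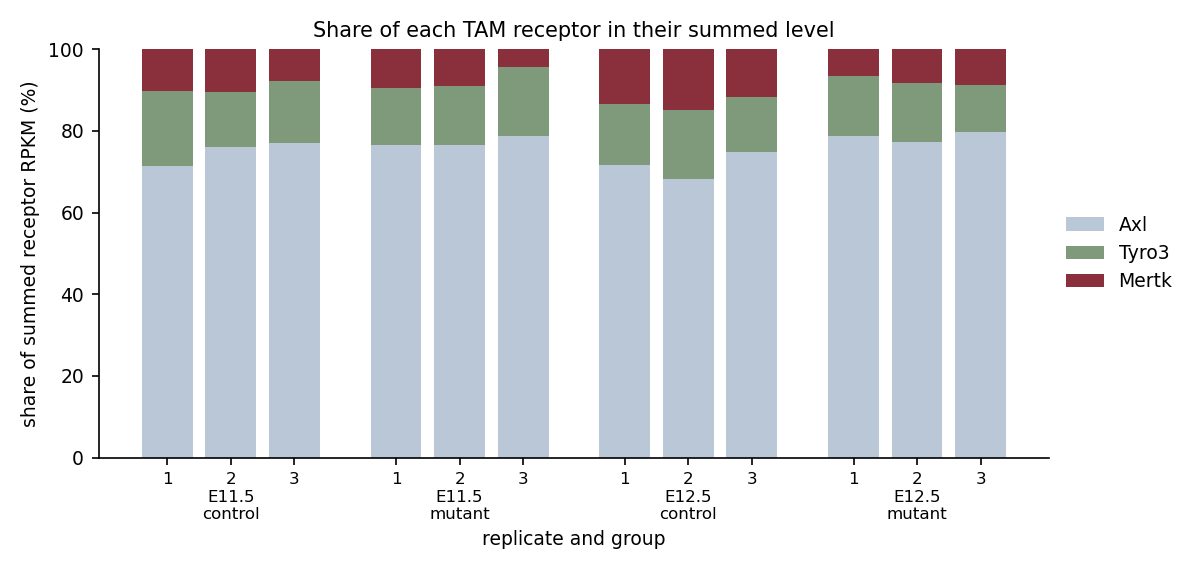
Share of Axl, Tyro3 and Mertk in the sum of their RPKM (percent) in each of the 12 libraries, grouped by stage and genotype. Axl took at least 68.28% of every bar, and the Mertk segment was 11.74% to 14.97% in E12.5 controls and 6.485% to 8.669% in E12.5 mutants.

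The stage dependence of the genotype difference was tested across all genes. By edgeR 0% of 12270 genes and 0 of the 5 members passed, with 551 genes at an unadjusted p under 0.05, whereas DESeq2 called 43. For Pros1, Axl, Mertk and Tyro3 the adjusted p was 0.983, 0.956, 0.956 and 0.961.

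Genes that work beside the TAM system were followed as lists. Of 21 other genes of phosphatidylserine recognition and engulfment, 15 were tested. By edgeR 0 were called between genotypes at either stage, although 7 fell under an unadjusted p of 0.05 at the earlier stage and 1 at the later, that is 7 and 1 of 15 against 10.18% and 21.38% of all genes. The list median was -0.023 at each stage, against 0.0 and -0.002 over all genes tested. Rac1, a small GTPase of phagocytic cup formation, averaged 310 and 351 CPM in E11.5 controls and mutants, and Mfge8, a secreted bridge to phosphatidylserine, 181 and 218 CPM. Cd36, a scavenger receptor, had an edgeR adjusted p of 0.0342 at E12.5, but its log2 fold change of -0.33 was below the fold threshold. From E11.5 to E12.5 in controls, Cd36 rose by 0.83 (SE 0.11, adjusted p = 0.00501) and Edil3, an integrin ligand that also bridges phosphatidylserine, fell by 0.79 (SE 0.14, adjusted p = 0.0154). Of 9 genes of phosphatidylserine exposure, the 6 tested gave 0 calls in every comparison, with 0 at an unadjusted p under 0.05 between genotypes. Tmem30a, a flippase subunit, averaged 190 and 181 CPM at E11.5 and 185 and 176 CPM at E12.5 in controls and mutants, and Atp11b, a flippase, 71.5 and 80.8, then 87.1 and 84.7 CPM.

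All 7 genes of the vitamin K cycle were tested, and edgeR called 0 at either stage, with 1 and 2 at an unadjusted p under 0.05. Calu, an inhibitor of the carboxylase, averaged 715 and 732 CPM in E11.5 controls and mutants. Vkorc1, the epoxide reductase that recycles vitamin K, averaged 33.9 ± 4.66 and 20.5 ± 3.74 CPM (SD, n = 3) at E11.5 and 26.6 ± 1.65 and 22.3 ± 2.85 CPM at E12.5. In the fit of both stages its log2 fold change was -0.49 (SE 0.12, edgeR adjusted p = 0.0253), below the fold threshold. Of 14 other vitamin K-dependent Gla proteins 4 were tested, and 2 were called downregulated with stage as a term, against 3.22% of all genes. Mgp, the matrix Gla protein that inhibits calcification, averaged 23.5 ± 7.96 and 8.57 ± 1.97 CPM at E11.5 and 37.2 ± 14 and 18.2 ± 7.33 CPM at E12.5 (log2 fold change -1.22, SE 0.24, edgeR adjusted p = 0.00853). Prrg2, a transmembrane Gla protein, had a log2 fold change of -0.61 (SE 0.12, edgeR adjusted p = 0.00996). Neither passed at a single stage, where Mgp had adjusted p of 0.0958 and 0.0748.

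Downstream of the receptors there was no call between genotypes. All 20 signalling relays were tested, and 0 were called by edgeR in any comparison. At each stage 1 fell under an unadjusted p of 0.05, against 10.18% of all genes at E11.5 and 21.38% at E12.5. In the fit of both stages Src had a log2 fold change of -0.26 (SE 0.07, edgeR adjusted p = 0.046), below the fold threshold. Akt1 averaged 427 and 469 CPM at E11.5 and 501 and 498 CPM at E12.5 in controls and mutants, and Mapk3 averaged 127 and 135, then 122 and 137 CPM. The 6 inflammatory feedback genes gave 0 calls and 0 at an unadjusted p under 0.05 between genotypes at either stage. Among them Twist1, a transcription factor, averaged 34.7 ± 10.2 and 31.9 ± 12 CPM at E11.5 in controls and mutants, and Ifnar2, a subunit of the type I interferon receptor, 35.8 ± 2.56 and 32.7 ± 3.79 CPM (SD, n = 3). The sheddases Adam10 and Adam17, which release receptor ectodomains, were not called, with log2 fold changes of -0.23 (adjusted p = 0.146) and -0.16 (adjusted p = 0.406) at E12.5.

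Among 7 partners of protein S in coagulation, 3 were tested in every comparison, and F5 (coagulation factor V) at E11.5 alone, where it was not called (log2 fold change 0.30, adjusted p = 0.888). Procr, the endothelial protein C receptor, was called upregulated at E12.5, averaging 12.8 ± 0.155 CPM in controls and 23.8 ± 0.547 CPM in mutants (SD, n = 3, log2 fold change 0.89, SE 0.10, edgeR adjusted p = 0.00132). At E11.5 it averaged 14.4 ± 2.08 and 29.3 ± 4.33 CPM, a log2 fold change of 1.02 (SE 0.17) that did not pass (adjusted p = 0.0815). It was called over both stages (0.96, SE 0.09, adjusted p = 0.000104). Tfpi, the tissue factor pathway inhibitor, averaged 139 and 120 CPM at E12.5 and did not pass (adjusted p = 0.178).

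The neighbours of the members on their chromosomes were examined as well. Tmem255b lies on the strand opposite Gas6. The GENCODE annotation has the genes overlap by 3100 bases, whereas the deposited coordinates leave 3922 bases between them. Tmem255b averaged 0.156 CPM. The annotation and use of strand in counting are not given in the sources used here, so that reads of any overlap cannot be told apart. On the other side of Gas6, 1700029H14Rik averaged 0.0414 CPM. Epha3, which follows Pros1 at a distance of 614192 bases and encodes an ephrin receptor, was the 1 neighbour called by edgeR. It was downregulated with a log2 fold change of -1.22 at the later stage (SE 0.14, adjusted p = 0.00132) and had -1.25 at the earlier (adjusted p = 0.0961). Stx19, on the other side of Pros1, averaged 0.0631 CPM. Hnrnpul1 and Cyp2s1 beside Axl, Anapc1 and Tmem87b beside Mertk, and Rpap1 and Mga beside Tyro3 did not pass at either stage. Their log2 fold changes at E12.5 were -0.11, -0.04, -0.10, -0.03, 0.12 and -0.09.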

How the data were processed

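RNA was extracted from embryonic hearts and sequenced in 12 libraries, 3 in each of 4 groups, and paired-end NextSeq 500 reads were aligned with BOWTIE and normalised with DEseq, according to the methods of the study. The submitters' processing notes name Bowtie2, DESeq and mm10. The annotation, counting program and use of strand are not given in the sources used here.

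The authors deposited values named RPKM for 20368 genes, which are treated as a score, because each equals a whole count multiplied by a gene length and a library factor rather than divided by them. The deposited average counts per group are expected count values made by the authors over 3 libraries, and from them the count of every gene in every library was recovered, all within 1e-06 of a whole number. Of the genes in the table, 944 had no average count and were left out. The authors' fold changes, z scores and p-values were not used.

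RPKM were computed from recovered counts and lengths, and genes averaging 0.5 or more were tested with edgeR 4.0.16 in R 4.3.3 (quasi-likelihood, TMM scaling), with calls made at adjusted p of 0.05 or less and 1.5-fold or more. Each contrast used its own 6 libraries, and contrasts with stage as a term used all 12. CPM were scaled by TMM over all 12 libraries. Embryo sex was read from the summed counts of 4 Y-linked genes, male at 100 or more. DESeq2 1.42.0, limma 3.58.1 on log2(RPKM + 0.5) and log2(RPKM + 0.1), other filters and scalings, sex, a replicate block, and each library left out in turn were alternatives. Scripts were tested on simulated data.

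The members and lists were chosen with earlier results of these data known. Named from each pathway list were the genes called in any contrast or otherwise the 2 of highest mean RPKM, with the 5 genes most like Gas6 and the nearest gene on each side of each member. Rac1, Mfge8, Src, Tfpi, F5 and the cell type markers were named beyond this rule, after their values were seen.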

Additional observations from a re-analysis of the deposited data

How the results depend on the processing

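Over the alternatives the log2 fold change of Gas6 between genotypes ran from 1.16 to 1.497 at E11.5. The 1.497, with sex as a term, rests on the 1 male E11.5 mutant. At E12.5 the log2 fold change ran from 0.72 to 0.97. Gas6 was selected on these libraries, which did not overlap between genotypes, so its constant direction is a description and no support. Pros1, Axl, Mertk and Tyro3 kept their direction at E12.5. The number of genes called at E11.5 was 14, and 248 with DESeq2, 73 with no filter, 6 at a mean RPKM of at least 5, 27 with limma, 29 with sex as a term, 221 in a fit of all 12 libraries and 0 to 15 with 1 library left out. At E12.5 it was 362, and 157 at the stricter filter, 132 in the 12-library fit, 613 with no fold threshold and 151 to 368 with 1 library left out, lowest without control replicate 1. In the fit of both stages it was 395, and 120 at the stricter filter and 840 with no fold threshold. Between stages in controls it was 647, and 363, 19, 336 and 1402 at the stricter filter, with sex, in the 12-library fit and with no fold threshold, and 44 (without E12.5 control replicate 1) to 1406 (without E11.5 control replicate 2). Between stages in mutants it was 68, and 227 with DESeq2, 119 with no filter, 29 at the stricter filter, 119 in the 12-library fit and 1 (without E12.5 mutant replicate 2) to 123 (without E11.5 mutant replicate 3). For the dependence on stage it was 0, and 43 with DESeq2 and 0 to 10 with 1 library left out, 10 without E11.5 mutant replicate 3. The cause of these shifts was not tested.

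The labels do not say whether replicate numbers pair the samples. Deviations of same-numbered libraries correlated at -0.029 to 0.425 at E11.5 and 0.0227 to 0.0585 at E12.5. Between stages they correlated at -0.121 to 0.167 in controls and -0.0327 to 0.0736 in mutants. At E11.5 replicates 2 and 3, at 0.425 and 0.293, lay above every differently numbered pair (-0.488 to 0.234), and replicate 1 did not. A pairing at E11.5 is therefore not settled by these values. The replicate block gave 73 calls at E11.5 and 36 between stages in mutants, and it turned no call of a member.

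With sex as a term Mertk at E11.5 moved from -0.21 to -1.28, away from 0 and without a turn of sign. At E11.5 that term leaves the genotype difference to the 1 male mutant, replicate 3. Values near 0 turned sign. With sex as a term Axl was -0.051 and Tyro3 -0.019 at E11.5. Between stages in controls Pros1 was -0.061 and Axl 0.12 with that term, and Mertk was 0.11 for the dependence on stage. At the stricter filter Axl was 0.0017 and Tyro3 0.0008 between stages in controls. With 1 library left out Mertk ran from -0.44 to 0.11 and Tyro3 from -0.047 to 0.11 at E11.5. Between stages in controls Pros1 ran from -0.11 to 0.084, Axl from -0.10 to 0.057 and Tyro3 from -0.093 to 0.080. Between stages in mutants Pros1 ran from -0.15 to 0.028 and Mertk from -0.13 to 0.42. For the dependence on stage Pros1 ran from -0.16 to 0.067 and Tyro3 from -0.034 to 0.13. The receptor shares of Axl and Mertk differed between genotypes by 3.89 to 5.53 and by -4.22 to -2.92 points with 1 library left out. With 61 to 348 counts per library, Mertk was measured least precisely.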
